A study of Mus musculus and Oryctolagus cuniculus and Sus scrofa with 20 samples.

Results

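The let-7 family without let-7e was described here by 7 mature guide strands, let-7a-5p, let-7b-5p, let-7c-5p, let-7d-5p, let-7f-5p, let-7g-5p and let-7i-5p, across 20 small RNA libraries. A member was counted as the sum of all tags (distinct read sequences with their read counts) of 18 to 26 nt that began with the first 18 nt of the mouse mature miRNA. let-7a-5p and let-7c-5p share those 18 nt and were told apart by base 19. All 7 members had counts in every library, out of 898 miRNA entries with a count in the series. Levels are in CPM, here counts per 1000000 miRNA counts, where the miRNA counts of a library are all tags that match a RefSeq mature miRNA in this way or lie within a mouse miRNA hairpin.

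Each of the 20 libraries was the only one of its group, so no difference can be set against a replicate, and each comparison is between single libraries rather than conditions. The 7 mouse stages, wild type and of C57BL/6 background, were cultured spermatogonial stem cells (SSCs), pre-leptotene and leptotene spermatocytes of postnatal day 9, zygotene spermatocytes of day 13, pachytene spermatocytes and round spermatids (labelled round sperms) of day 25, and mature sperms of unstated age. Leptotene, then zygotene, then pachytene follow each other in the prophase of meiosis I. Whole testes of wild type rabbits were taken at postnatal days 10, 30, 60, 70, 80, 90, 110 and 180, with a spike-in from outside the animal added to the RNA. Adult wild type testes of pig and rat gave 1 library each. A wild type SSC control and 2 miR-741 knockout SSC lines, made by TALEN and by CRISPR, had the background C57BL/6 x DBA2 F1 and an age of day 15; per the labels' protocols such cells came from a male with actin-EGFP transgenes, grew on embryonic fibroblast (MEF) feeder cells, and each knockout line was 1 picked colony. The protocol gives only this origin for SSCs, while the SSC library of the stage series is labelled C57BL/6. No group received a treatment, and nothing in the labels says whether a library came from 1 or several animals.

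let-7 miRNAs are a family of nearly identical small RNAs, conserved across animals, that guide Argonaute proteins to messenger RNAs by pairing through the seed, bases 2 to 8. They are known for accumulating as cells differentiate. In stem cells the protein LIN28 binds let-7 precursors and promotes the addition of uridines to the 3′ ends of the precursors, which marks them for decay. The 3′ ends described below are those of mature guide strands, not of precursors.

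The mature sequences, from RefSeq for GRCm38.p6, show how little separates the members; the seed is in capitals and is the same, GAGGUAG, in all 7 and in their same-seed relatives let-7e-5p and miR-98-5p.
let-7a-5p: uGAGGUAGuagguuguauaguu
let-7b-5p: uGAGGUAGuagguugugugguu
let-7c-5p: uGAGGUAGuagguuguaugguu
let-7d-5p: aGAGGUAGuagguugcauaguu
let-7f-5p: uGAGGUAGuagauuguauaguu
let-7g-5p: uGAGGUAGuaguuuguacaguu
let-7i-5p: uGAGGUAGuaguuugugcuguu
let-7e-5p: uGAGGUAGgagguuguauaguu
miR-98-5p: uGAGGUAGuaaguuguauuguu

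Counting positions from 1 at the 5′ end, let-7c-5p differs from let-7a-5p by A19G alone and let-7f-5p differs from let-7a-5p by G12A alone. let-7b-5p and let-7c-5p are 1 base apart (G17A), and let-7i-5p differs from let-7g-5p by A17G and A19U. let-7d-5p is the member that starts with A, and differs from let-7a-5p by U1A and U16C. Such single-base differences could be made by sequencing errors. At position 12 of tags otherwise like let-7a or let-7f, the bases that belong to neither made up 0.0218% (SSC control) to 0.149% (TALEN line) of counts, and at position 19, 0% to 0.127% (rat). Position 17 was not checked. Within the first 18 nt it alone separates let-7b from let-7a and let-7c, and let-7i from let-7g. Misread tags of an abundant member could thus enter a scarce one such as let-7b. Tags of 18 nt, which end before base 19, were 0% (CRISPR line) to 1.42% (rat) of the let-7a and let-7c tags and entered the family sum only.

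The 7 members come from 10 hairpins in the mouse. On chromosome 13, minus strand, mature let-7a (let-7a-1, 48538239 to 48538260), let-7f (let-7f-1, 48537889 to 48537910) and let-7d (48536078 to 48536099) lie in 1 cluster. On chromosome 15, plus strand, let-7c (let-7c-2, 85706616 to 85706637) lies beside let-7b (85707325 to 85707346). let-7c-1 lies beside miR-99a on chromosome 16 (77599672 to 77599693, plus strand), and the let-7a-2 hairpin beside miR-100 on chromosome 9 (41536716 to 41536811, plus strand). let-7f-2 lies beside miR-98 on the X chromosome (151912353 to 151912374, plus strand). let-7g (chromosome 9, 106178846 to 106178867, plus strand) and let-7i (chromosome 10, 122985698 to 122985719, minus strand) have a hairpin each. let-7a, let-7c and let-7f levels are therefore sums over a pair of hairpins each, which the mature sequence does not separate.

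The libraries held 597732 (CRISPR line) to 25908109 (mature sperm) counts, of which 230198 (CRISPR line) to 6857276 (pre-leptotene) were miRNA counts. miRNAs made up 29.3% of counts in SSCs, 33.1% to 52.1% in pre-leptotene to zygotene cells, 2.03% in pachytene spermatocytes, 3.07% in round spermatids and, last, 15.7% in mature sperm, and fell from 58.7% to 9.32% between day 10 and day 180 in rabbit. The late germ cell miRNAs (miR-34b, the miR-34c hairpin and miR-449a) summed to 155100 CPM in pachytene spermatocytes and 235493 in round spermatids against 112 to 4806 in SSCs and in pre-leptotene to zygotene cells and 6887 in mature sperm. The 5 stem cell markers that could be measured (the miR-290 cluster and the miR-302a hairpin, the last at 0 in the mouse stages) summed to 1956 in SSCs and to 25.96 to 183 in the 6 later stages. All intervals given are 95% exact intervals; since no molecular identifiers were used, they reflect counting error and nothing else.

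Across mouse spermatogenesis the order of the stages in summed let-7 level differed between the scales. Per miRNA count, the sum was 16993 CPM in SSCs, 6733 at pre-leptotene, 6401.5 at leptotene, 16498 at zygotene, then 31323 in pachytene spermatocytes, 41151 in round spermatids and, last, 68379 in mature sperm. On that scale mature sperm had the highest level of the 7 stages and leptotene cells the lowest. In CPM of all tags the sum was 4973 in SSCs, 3506 at pre-leptotene, 2843 at leptotene, 5456 at zygotene, then 636 in pachytene spermatocytes, 1262 in round spermatids and, last, 10753 in mature sperm. There mature sperm again had the highest level, but pachytene cells the lowest. A level on either scale depends on what else is in the library. The X-linked miR-506 family, to which miR-741 belongs, took 4986335 of the 6857276 miRNA counts in pre-leptotene cells and 2609732 of 5941778 in SSCs, and the change of the let-7 sum from SSC to pre-leptotene, -1.34 on the log2 scale, was -0.30 when that family was left out of the denominator and turned to 0.08 with DESeq2 size factors. Shares within the family, given next, do not depend on the denominator.

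The members did not keep their proportions. let-7i, the leading member in SSCs, made up 37.0% of the family there, 3.66% at pre-leptotene, 4.07% at leptotene, 7.16% at zygotene, then 6.64% in pachytene spermatocytes, 5.05% in round spermatids and, last, 3.04% in mature sperm. SSCs stood apart from all 6 later stages in this share, which ran from 3.04% to 7.16% there. let-7g took the lead in every later stage: its share was 18.4% in SSCs, 32.2% at pre-leptotene, 33.7% at leptotene, 33.4% at zygotene, then 47.7% in pachytene spermatocytes, 58.1% in round spermatids and, last, 34.8% in mature sperm. The round spermatid value was the greatest share of any member in the 20 libraries.

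let-7a-5p was the second member of the late cells. Its share was 10.8% in SSCs, 23.9% at pre-leptotene, 23.3% at leptotene and 16.9% in zygotene cells, 30.7% in pachytene spermatocytes, 28.0% in round spermatids and, last, 27.8% in mature sperm. let-7a and let-7g together reached 78.3% of the family in pachytene spermatocytes and 86.1% in round spermatids, against 29.2% in SSCs, 50.3% to 56.9% in pre-leptotene to zygotene cells and 62.5% in mature sperm. let-7f-5p was above let-7a in the early cells and well under both let-7a and let-7g in the late ones. It held 24.9%, 30.4%, 30.0% and 27.2% from SSCs to zygotene cells, 11.0% in pachytene spermatocytes, 6.68% in round spermatids and, last, 18.04% in mature sperm.

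let-7b and let-7c, which share a chromosome 15 cluster, held their smallest shares in pachytene spermatocytes and round spermatids. let-7c-5p was 4.07% of the family in SSCs, 5.41% at pre-leptotene, 5.15% at leptotene, 8.47% at zygotene, 1.24% in pachytene spermatocytes, 0.501% in round spermatids and, last, 8.89% in mature sperm. let-7b-5p held, in the same order of stages, 1.22%, 1.39%, 1.37%, 3.31%, 0.476%, 0.138% and 2.26%. The pachytene and round spermatid values rest on 179 and 149 counts of let-7c and 69 and 41 counts of let-7b. As a ratio of counts, let-7a stood to let-7c at 2.66 in SSCs, 4.42 at pre-leptotene, 4.52 at leptotene and 2.0001 in zygotene cells, then at 24.8 in pachytene spermatocytes, 55.8 in round spermatids and, last, 3.12 in mature sperm. In round spermatids base 19 of this pair thus read A in 8319 counts and G in 149.

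**Figure D1:**
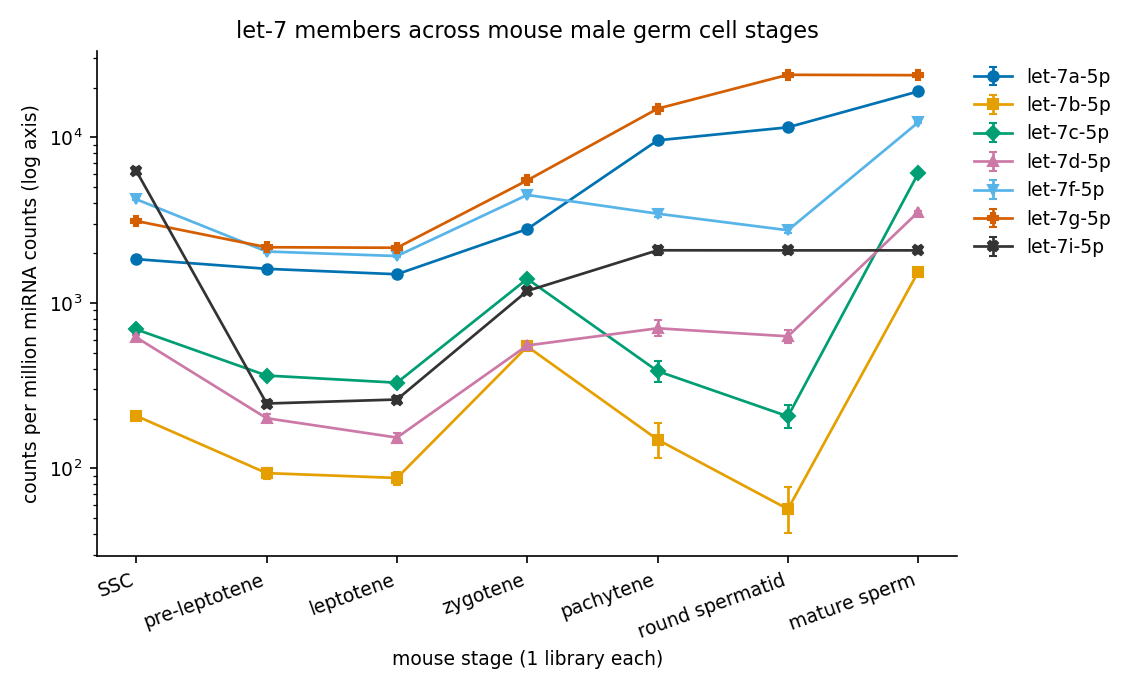
Level of each let-7 member (CPM of miRNA counts, log axis) in the 7 mouse stage libraries; points are libraries and bars 95% exact Poisson intervals, which cover counting error only. let-7i is the highest member in SSCs, while let-7b and let-7c have their lowest values in round spermatids (56.7 and 206 CPM) beside let-7g at 23916.

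**Figure D2:**
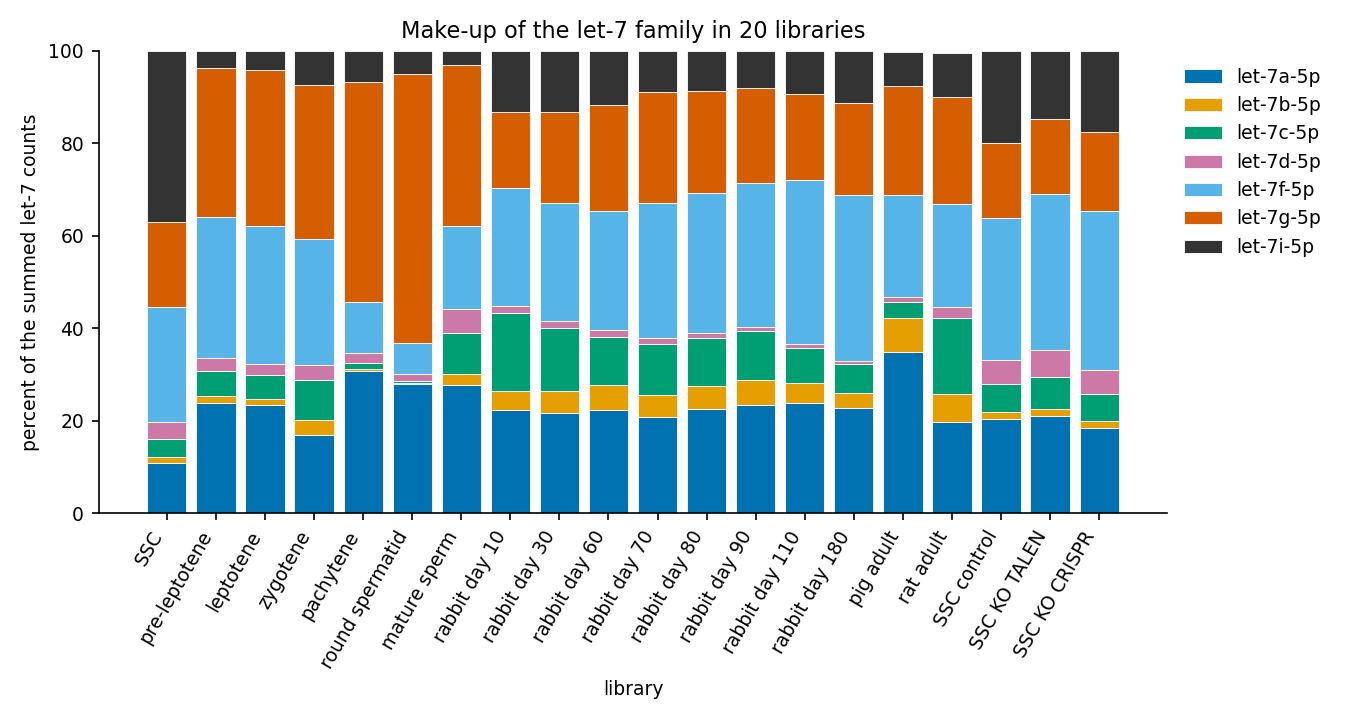
Percent of the summed let-7 counts held by each member in all 20 libraries, stacked; the small part above some bars is the 18-nt tags not assigned to let-7a or let-7c. let-7i makes up 37.0% in SSCs and let-7g 58.1% in round spermatids, while the rabbit, pig and rat bars hold no member above 35.9%.

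Between consecutive mouse libraries a change was called at 2-fold, among entries with at least 100 counts in 1 of the pair. From SSCs to pre-leptotene cells 4 of 7 members were at least 2-fold lower, against 72.2% of all 334 entries tested, and 0 were higher, against 7.78%. With DESeq2 size factors 1 member was higher and 1 lower, and the calls over all entries moved from 26 higher and 241 lower to 66 and 156. let-7i had by far the greatest difference of the members, at 6279 and 247 CPM (log2 change -4.67, interval -4.74 to -4.60), and stayed 2-fold lower under every scaling used here. let-7a had the smallest, at 1838 and 1607 (-0.19, -0.23 to -0.16). let-7d (-1.62), let-7b (-1.15) and let-7f (-1.05) passed the fold, and let-7c (-0.93) and let-7g (-0.53) did not. The median over members was -1.05 and over all entries -2.25, a distance of 1.20 that no change of scaling alters. Markers of other cells moved at this step too. The 5 feeder or stromal markers, each lower in pre-leptotene cells, summed to 27756 CPM in SSCs and 5919 there, and the 7 epithelial markers to 2939.7 and 259. The gonadal pair miR-202-5p and miR-202-3p summed to 1.18 and 122, with miR-202-3p at 0 in SSCs. Their part in the let-7 values was not tested.

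Pre-leptotene and leptotene cells, both of day 9, carried nearly the same let-7 population. No member of 7 passed 2-fold in either direction, against 3.29% of 213 entries higher and 0.469% lower. The 7 changes ran from -0.39 (let-7d) to 0.08 (let-7i), and the intervals of let-7b, let-7g and let-7i included 0. The medians were -0.10 for members and -0.05 for all entries.

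From leptotene to zygotene cells, 6 of 7 members were at least 2-fold higher, where 35.8% of 240 entries were, and 0 were lower, where 0.833% were. The counts over all entries were 86 higher and 2 lower, and with DESeq2 size factors 40 and 13, with 4 members higher. let-7b changed most, from 87.5 to 545 CPM (2.64, interval 2.50 to 2.78), followed by let-7i (2.18), let-7c (2.08), let-7d (1.85), let-7g (1.35) and let-7f (1.23). let-7a, at 1490 and 2795 CPM, fell short of the fold at 0.91 (0.87 to 0.95). The zygotene cells come from older animals than the leptotene cells, so stage and age cannot be told apart. Markers of gonadal somatic cells moved at the same step: miR-202-5p and miR-202-3p, both detected, summed to 136 CPM at leptotene and 2968 in zygotene cells, and the 5 feeder or stromal markers, all detected, to 5628 and 14407. Their part in the let-7 values was not tested. In bulk RNA, fewer cells of a type and less RNA per cell cannot be told apart.

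The step from zygotene to pachytene cells split the family. The pachytene cells come from older animals (day 25 against day 13), so here too stage and age cannot be told apart. let-7a was higher, at 2795 and 9607 CPM (log2 change 1.78, interval 1.73 to 1.83), and let-7g was higher, at 5506 and 14927 (1.44, 1.40 to 1.48). let-7b was lower, at 545 and 149 CPM (-1.87, -2.24 to -1.53), and let-7c was lower, at 1397 and 387 (-1.85, -2.07 to -1.64). So 2 of 7 members were at least 2-fold higher, against 20.2% of 248 entries, and 2 were lower, against 37.9%. let-7d (0.34), let-7f (-0.38) and let-7i (0.82) stayed under the fold. Between members the distance is free of the denominator, but the directions are not: in CPM of all tags in the library, where miRNAs are 2.03% of pachytene counts, all 7 members were at least 2-fold lower, let-7a at -2.24 and let-7g at -2.59, and the counts over all entries moved from 50 higher and 94 lower to 16 and 231. Without the miR-506 family in the denominator they were 24 and 137. The 5 stromal markers summed to 14407 CPM at zygotene and 7294 in pachytene cells, and the gonadal pair to 2968 and 316; their part was not tested.

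Pachytene spermatocytes and round spermatids differed less. No member of the 6 tested passed 2-fold, against 11.5% of 130 entries higher and 22.3% lower. let-7c changed most among them, from 387 to 206 CPM (-0.91, interval -1.23 to -0.59), let-7g was higher at 14927 and 23916 (0.68, 0.64 to 0.72), and let-7i was level at 2080 and 2077 (-0.00, -0.12 to 0.12). let-7b was left out of the count because it had 69 and 41 counts; its level was 149 and 56.7 CPM (-1.39, -1.99 to -0.82). In CPM of all tags, let-7g passed the fold, and the counts over all entries changed from 15 higher and 29 lower to 26 and 18.

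From round spermatids to mature sperm the members that had been scarcest differed most. let-7c was at 206 and 6081 CPM, a 29.5-fold difference (log2 change 4.88, interval 4.65 to 5.12), and let-7b at 56.7 and 1543, a 27.2-fold difference (4.77, 4.32 to 5.25). let-7d (2.50) and let-7f (2.17) were also at least 2-fold higher, which makes 4 of 7 members against 35.6% of 205 entries; 0 were lower, against 26.8%. let-7g (-0.01, -0.03 to 0.02) and let-7i (-0.00, -0.08 to 0.08) were level, and let-7a was higher by 0.72. In CPM of all tags, all 7 members were at least 2-fold higher, and the counts over all entries went from 73 higher and 55 lower to 158 and 15. Markers of other cells were also higher in the sperm library than in round spermatids: the 7 epithelial markers summed to 14522 CPM against 220 (miR-205-5p at 0 in round spermatids), 3 of 5 blood markers that could be measured to 1177 against 1.38 (miR-451a and miR-223-3p at 0 there), and the 5 stromal markers to 16442 against 1903 (miR-214-3p at 0 there). The gonadal pair went the other way, with 24.1 against 187 and miR-202-3p at 0 in sperm. What part these have in the let-7 values was not tested.

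Of the same-seed relatives, let-7e-5p had its lowest levels in pachytene spermatocytes and round spermatids, with overlapping intervals, and miR-98-5p in round spermatids. let-7e-5p, from the miR-99b and miR-125a cluster, was at 343 CPM in SSCs, 123 at pre-leptotene, 91.0 at leptotene, 240.5 at zygotene, 19.5 at pachytene, 17.99 in round spermatids and, last, 139 in mature sperm. miR-98-5p, the X-linked neighbour of let-7f-2, was at 154, 19.2, 20.4, 60.2, 28.1, 8.30 and 81.5. In pachytene spermatocytes and round spermatids these rest on 9 and 13 counts of let-7e and 13 and 6 of miR-98.

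The neighbours of let-7 in its other clusters moved apart from each other. miR-99a-5p, beside let-7c-1, was at 2478 CPM in SSCs, 17755 at pre-leptotene, 17876 at leptotene, 48548 at zygotene, 10357 at pachytene, 6358 in round spermatids and, last, 54126 in mature sperm. miR-100-5p, beside let-7a-2, was at 2899, 1935, 1919, 3528, 2132, 5381 and 4431. miR-125b-5p, whose miR-125b-1 hairpin lies on the same chromosome 9 stretch, was at 3471, 706, 563, 1105, 385, 298 and 6467. From zygotene to pachytene cells miR-99a changed by -2.23 and let-7c by -1.85. From SSCs to pre-leptotene cells they took opposite directions in CPM of miRNA counts, with 2.84 for miR-99a and -0.93 for let-7c. The chromosome 15 hairpin also gives a part of let-7c. The direction of let-7c at this step depends on the scaling: with DESeq2 size factors 5 of 7 members, let-7c among them, were above 0.

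Over the 7 mouse stages the entries outside the family whose levels were most like the let-7 sum were miR-128-3p (Pearson r of log2 levels 0.97), miR-34c-3p (0.96), miR-34b-3p (0.95), miR-1839-5p (0.95) and miR-29b-3p (0.94), out of 350 entries. miR-128-3p ran from 186 CPM in pre-leptotene cells to 1655 in mature sperm. All levels share a denominator in which the part of the miR-506 family changed with stage. It took 4986335 of 6857276 miRNA counts at pre-leptotene and 325470 of 4074071 in mature sperm. The likeness is therefore only a description.

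The 3′ ends varied around a dominant whole form. The exact 22-nt mature sequence made up 74.9% of let-7 counts in SSCs, 78.7% at pre-leptotene, 78.7% at leptotene, 71.1% at zygotene and 82.3% in pachytene cells, 78.4% in round spermatids and, last, 59.7% in mature sperm. Mature sperm had the lowest share of the 20 libraries, and rat testis followed with 63.7%. Among other miRNA entries with at least 1000 counts, the median share of the exact mature sequence was 24.8% in mature sperm and 36.0% to 52.7% in the other mouse stages. In mature sperm 23.3% of let-7 counts were 18 to 21 nt long and 16.3% were 23 to 26 nt, against 8.64% and 8.76% in pachytene spermatocytes. Change at the 5′ end was rare: tags missing 1 base there were 0.0101% (round spermatids) to 0.215% (CRISPR line) of let-7 counts.

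Tails were read as the bases after the longest stretch that matches a mouse hairpin of the member. These forms of let-7i, the 4 most frequent over all libraries, show what such tags look like; the letters are those of the reads (T for U) and the added base is in capitals.
let-7i form of 22 nt: tgaggtagtagtttgtgctgtt
let-7i form of 23 nt: tgaggtagtagtttgtgctgttT
let-7i form of 21 nt: tgaggtagtagtttgtgctgt
let-7i second form of 23 nt: tgaggtagtagtttgtgctgttA

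The mouse hairpin of let-7i has G at position 23, so in mouse both 23-nt forms carry a base that the gene does not encode. Over all libraries, 71082 of 455261 let-7i counts (15.6%) were whole sequences with 1 base more; of these 57.8% ended in T, 39.7% in A, 0.770% in C and 1.68% in the G of the hairpin. Most of these counts came from rabbit, whose hairpin was not used, so there an encoded base cannot be told from an added one. In the mouse SSCs 6826 of 37309 let-7i counts were such sequences. Of these 50.3% ended in T, 46.8% in A and 2.11% in G. In the mouse hairpins of let-7a, let-7b, let-7c, let-7d and let-7g the base at position 23 is T, so an added T cannot be told from an encoded one. For let-7f the let-7f-2 hairpin has T and the let-7f-1 hairpin G; of 61082 whole let-7f sequences with 1 base more, 64.0% ended in T and 2.01% in G. In mouse an added A can be seen in every member. Over all libraries, A closed 26.2% of the 23-nt whole forms of let-7a and 34.8% of those of let-7g.

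An added T at position 23 is a tail in let-7i but matches a hairpin of each other member, which raises the unmatched share of let-7i. Over all libraries, whole sequences with 1 base more were 17.6% of let-7b counts and 15.6% of let-7i counts. In every library let-7i or let-7b had the greatest share of tags with a tail that does not match the hairpin. For let-7i it was 21.5% in SSCs, 20.6% at pre-leptotene, 21.7% at leptotene, 19.3% at zygotene and 13.7% in pachytene cells, 24.2% in round spermatids and, last, 39.0% in mature sperm. Mature sperm was highest and pachytene cells lowest. For let-7b it was 25.7%, 17.1%, 14.9%, 11.7%, 5.80%, 9.76% and 22.7% in the same order, with few counts in pachytene cells and round spermatids. The other 5 members lay between 1.23% (let-7d in pachytene cells) and 9.40% (let-7c in round spermatids, 149 counts) in the mouse stages.

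The tails of let-7i differed in their base between stages. Tails of T alone were 9.67% of let-7i counts in SSCs, 11.4% at pre-leptotene, 13.3% at leptotene, 10.3% at zygotene and 11.0% in pachytene cells, 20.6% in round spermatids and, last, 20.6% in mature sperm. Tails of A alone were 9.50%, 7.81%, 6.77%, 7.63%, 1.98%, 3.13% and 14.5%. T tails thus outnumbered A tails most in pachytene cells and round spermatids, where of the 121 and 339 whole let-7i sequences with 1 base more, 83.5% and 87.0% ended in T, against 50.3% of 6826 in SSCs and 62.7% of 2700 in mature sperm. Over all members, A tails were 6.29% of let-7 counts in SSCs, 2.81% to 2.85% in pre-leptotene to zygotene cells, 1.33% in pachytene cells, 2.13% in round spermatids and, last, 5.13% in mature sperm.

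**Figure D3:**
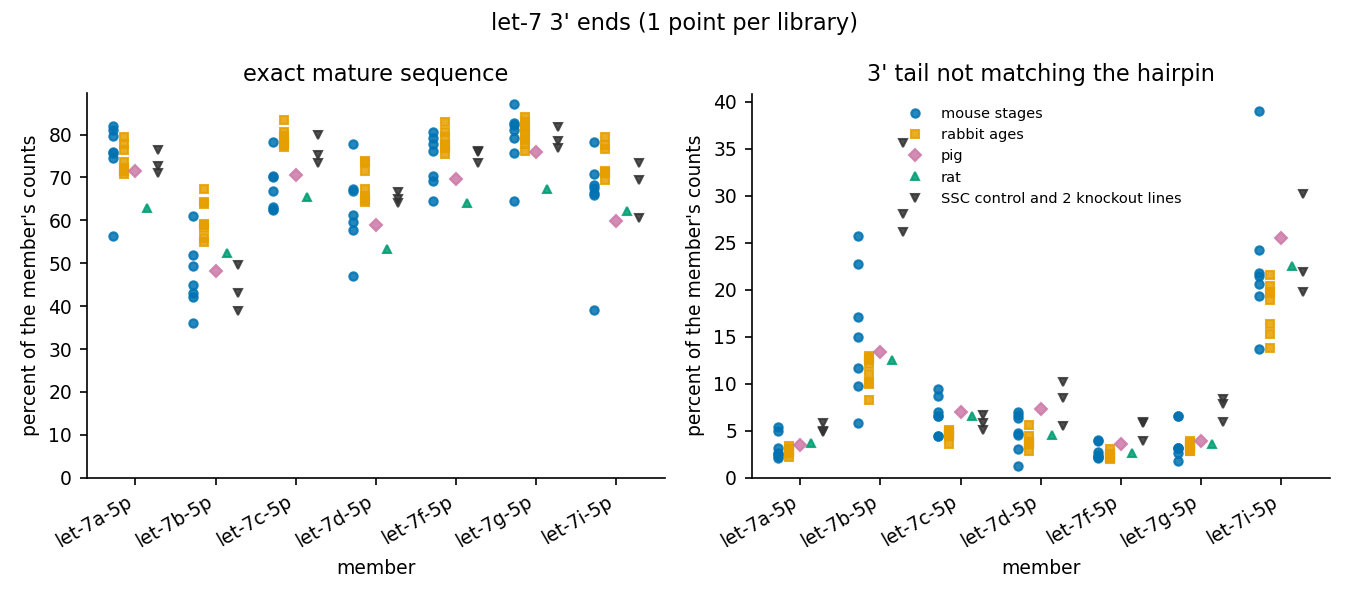
Percent of each member's counts that are the exact mature sequence (left) and that carry a 3′ tail not matching the mouse hairpin (right); each point is 1 library, coloured by set. On the right let-7b or let-7i is the highest member in each library, and the top let-7i point is mature sperm at 39.0%. A T added after the mature sequence counts as a tail in let-7i only, since it matches a hairpin of each other member.

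The passenger (3p) strands, which leave the duplex when the guide is loaded, were a small part of the family. They were 1.09% of the counts of both arms in SSCs, 2.25% at pre-leptotene, 1.97% at leptotene, 1.25% at zygotene, 1.49% at pachytene, 0.495% in round spermatids and, last, 1.09% in mature sperm. let-7d kept the most passenger of the members whose strand names 1 hairpin: let-7d-3p was 6.77% of let-7d counts in SSCs, 12.2% at pre-leptotene, 15.9% at leptotene, 8.99% at zygotene, 11.4% at pachytene, 8.47% in round spermatids and, last, 7.50% in mature sperm. let-7i-3p was 0.150% to 0.414% of its arms in these libraries. Strands that start at another base than the RefSeq sequence were not counted, and let-7g-3p had 0 counts in all libraries.

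Passenger strands also tell the hairpins of let-7f apart. let-7f-2-3p, from the X chromosome, was 90 of 135 let-7f passenger counts in SSCs (66.7%, interval 58.0% to 74.5%), 96 of 102 in pre-leptotene (94.1%), 39 of 52 in leptotene (75.0%) and 110 of 120 in zygotene cells (91.7%, 85.2% to 95.9%). In pachytene spermatocytes it was 19 of 19 (interval from 82.4%) and in round spermatids 10 of 10 (from 69.2%). In mature sperm it was 49 of 100 (49.0%, 38.9% to 59.2%), and this interval does not overlap those of the pre-leptotene, leptotene, zygotene, pachytene and round spermatid libraries. In rabbit testis the same mouse sequences gave let-7f-2 shares of 71.5% at day 10 and 81.7% to 93.7% at later ages.

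**Figure D4:**
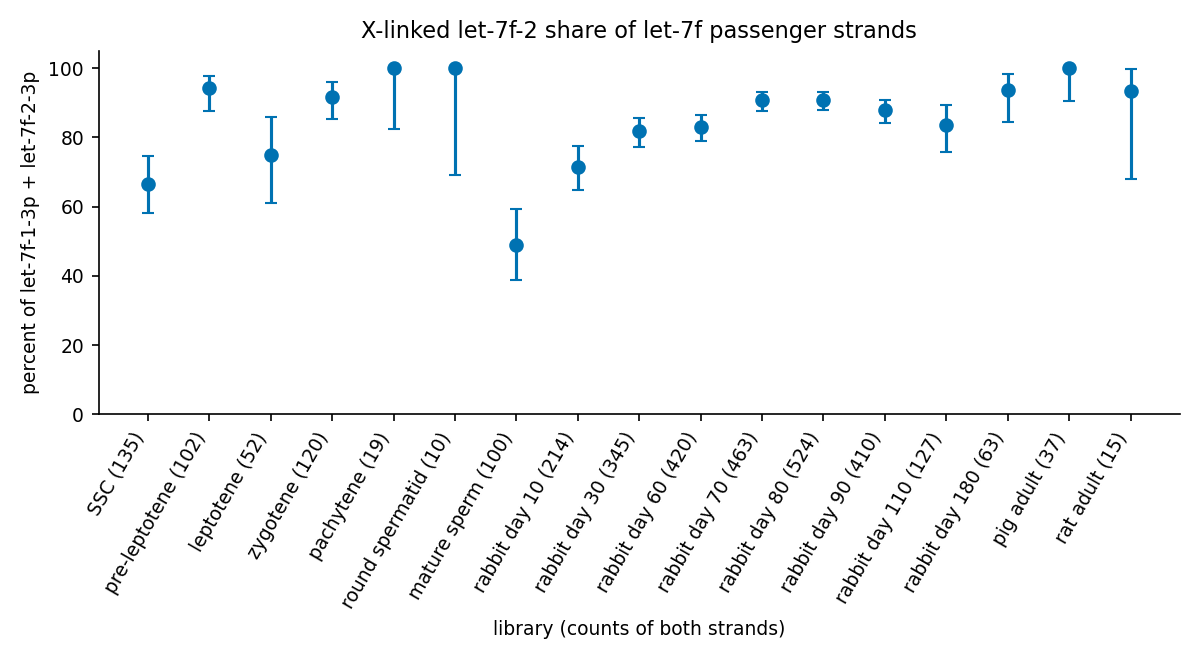
Percent of let-7f passenger strands that carry the X-linked let-7f-2 sequence, in the libraries with at least 10 such counts; bars are 95% exact Clopper-Pearson intervals and the counts are in parentheses. Mature sperm, at 49.0%, is the lowest point, and pachytene cells, round spermatids and pig testis are at 100%.

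In rabbit testis let-7 was a larger part of the miRNA counts than in any mouse library. Those counts hold only tags that match mouse sequences, so rabbit miRNAs unlike those of the mouse are left out. Whole testis is also set beside germ cells and cultured SSCs here. The let-7 sum had no trend with age that passed the test in CPM of miRNA counts. It was 130960.0 CPM at day 10, 143597 at day 30, 134344 at day 60, 113071 at day 70, 115468 at day 80, 122522 at day 90, 134926 at day 110 and 134481 at day 180. Spearman's rho with age was 0.05 (two-sided exact permutation p = 0.935) and Pearson's r -0.03 (exact permutation p = 0.946; -0.36 without days 10 and 180). In CPM of all tags rho was -0.98 (exact permutation p = 0.000397) and r -0.91 (exact permutation p = 0.000124; -0.86 without days 10 and 180), beside the fall of the miRNA share with age given above. Which of both scales is nearer to let-7 per cell was not tested.

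In CPM of miRNA counts, 2 members were lower with age; in CPM of all tags, all 7 were, where 58.5% of the 207 entries were lower with age and 2.9% higher. let-7c-5p was at 21946 CPM at day 10, 19483 at day 30, 14006 at day 60, 12366 at day 70, 11874 at day 80, 13001 at day 90, 10445 at day 110 and 8584 at day 180. Its rho with age was -0.93 (exact permutation test, Benjamini-Hochberg adjusted p over 207 entries = 0.0140; r = -0.94). let-7d-5p was at 2118, 2380.0, 1973, 1340.0, 1241, 1136, 1019 and 873, with the highest value at day 30 and the lowest at day 180 (rho -0.98, exact permutation, adjusted p = 0.00747; r = -0.90). So 2 of 7 members were lower with age, against 20.8% of the 207 entries, and 0 were higher, against 13.5%. Between the youngest and the oldest testis let-7c changed by -1.35 and let-7d by -1.28 on the log2 scale.

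let-7f-5p went the other way without passing the test by rank. It was at 33373 CPM at day 10, 36441 at day 30, 34512 at day 60, 33188 at day 70, 35014 at day 80, 38075 at day 90, 47893 at day 110 and 48217 at day 180. Its rho was 0.76 (exact permutation, adjusted p = 0.0865), and Pearson's r of log2 level with age was 0.81 (exact permutation, adjusted p = 0.0305). The days 110 and 180 lay above all others. let-7a (rho 0.17), let-7b (-0.38), let-7g (-0.17) and let-7i (-0.60) did not pass, with adjusted p of 0.766, 0.471, 0.766 and 0.226 by the same exact permutation test. let-7i had its lowest values at days 70, 80 and 90, between 9829.7 and 9919.8 CPM, against 17325 at day 10 and 15264 at day 180.

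Without days 10 and 180, the ages farthest from the median, no member passed: let-7d had rho -1 at an exact permutation p of 0.00278, the smallest that 6 ages allow, and an adjusted p of 0.0639, and let-7c -0.83 with 0.161. Without days 110 and 180, adjusted p by the same exact test was 0.133 for let-7d (rho -0.94) and 0.192 for let-7c (-0.83). Markers of other cell types moved with age too. The late germ cell markers, 3 of 3 detected at every age, summed to 88.7 to 1197 CPM up to day 90, 46251 at day 110 and 87678 at day 180. miR-202-5p was at 4203 at day 10, 19284 at day 70 and 9396 at day 180, with miR-202-3p at 0 throughout. The 5 stromal markers, all detected, summed to 50593 to 76638 up to day 90, 138179 at day 110 and 125331 at day 180, but did not move together. The hairpins of miR-143 (35693 CPM at day 10 and 109764 at day 180) and miR-145a (3474 and 7845) were higher in the oldest testis. miR-199a-5p (17955 and 3948), miR-199a-3p (16655 and 3663) and miR-214-3p (602 and 110.4) were lower there, as let-7c and let-7d were. The 7 epithelial markers summed to 199 CPM at day 10, 428 at day 90, 3823 at day 110 and 6150.1 at day 180, with miR-429-3p at 0 at days 30, 60, 70, 110 and 180 and miR-205-5p at 0 at day 180. The 3 of 5 blood markers that could be measured summed to between 126 (day 70) and 610.1 (day 180). What part these have in the let-7 values was not tested.

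**Figure D5:**
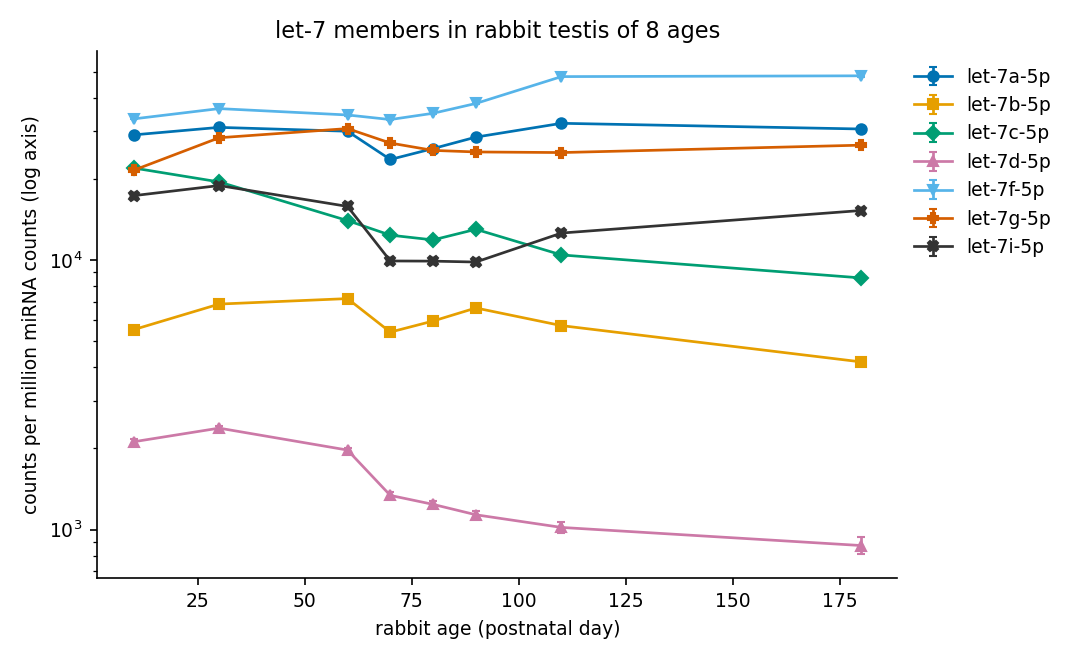
Level of each let-7 member (CPM of miRNA counts, log axis) against postnatal day in 8 rabbit testis libraries; bars, mostly smaller than the points, are 95% exact Poisson intervals. let-7c and let-7d are at 21946 and 2118 at day 10 and at 8584 and 873 at day 180, and let-7f reaches 48217.

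As shares, let-7f led the family at every rabbit age, from 25.5% at day 10 to 35.9% at day 180, and let-7c went from 16.8% to 6.38%. The ratio of let-7a to let-7c was 1.33, 1.59, 2.14, 1.91, 2.18, 2.20, 3.08 and 3.57 from the youngest to the oldest testis. let-7a itself held 20.9% to 23.8%. The same-seed let-7e-5p, at 2833 CPM at day 10 and 1527 at day 180, had rho -0.93 (exact permutation, adjusted p = 0.0140), and miR-98-5p -0.19 (0.756). Of the cluster neighbours miR-99a-5p also had rho -0.93 (adjusted p = 0.0140), while miR-100-5p (0.10, 0.887) and miR-125b-5p (-0.55, 0.266) did not pass.

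Over the 8 rabbit libraries the entries most like the let-7 sum were miR-340-3p (Pearson r of log2 levels 0.88), miR-99b-3p (0.83), miR-106b-3p (0.81), miR-144-5p (0.79) and miR-17-5p (0.76), out of 193 entries. The let-7 sum spans only 113071 to 143597 CPM here, so the likeness concerns small differences.

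At the 3′ end, the whole form was most frequent in the youngest rabbit testis. The exact mature sequence was 81.1% of let-7 counts at day 10, 79.1% at day 30, 78.0% at day 60, 74.3% at day 70, 75.9% at day 80, 75.0% at day 90, 74.5% at day 110 and 74.1% at day 180. The mean tag length of let-7g was 21.93 nt at day 10 and 21.89 at day 180 (rho -0.88, exact permutation, adjusted p over 98 entries = 0.0591), and that of let-7i 22.06 and 22.13 (0.81, adjusted p = 0.102). By this exact permutation test, at an adjusted p under 0.05, 0 of 7 members became longer, against 0% of the 98 entries, and 0 shorter, against 6.12%. Compared with the mouse hairpin, T tails were 6.93% of let-7i counts at day 10 and 12.7% at day 180, and A tails 5.24% and 6.59%. The rabbit, pig and rat hairpins were not used here, so a base encoded in those species would be read as a tail.

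Adult testes of the other species held let-7 at 84664 CPM in pig and 70811 in rat, beside 134481 in rabbit of day 180. Here too the miRNA counts hold only tags that match mouse sequences. The make-up of the family differed: let-7a led in pig with 35.0%, let-7g in rat with 23.2% and let-7f in rabbit with 35.9%. In rat, let-7g (7541 counts) and let-7f (7246) had overlapping intervals. let-7c was 16.5% of the family in rat, 3.32% in pig and 6.38% in rabbit, and the ratio of let-7a to let-7c 1.19, 10.5 and 3.57. The miR-34 and miR-449 sum was 350355 CPM in rat, 9210.0 in pig and 87678 in rabbit, the 5 stromal markers 85932, 70691 and 125331, and miRNAs were 7.62%, 10.4% and 9.32% of counts, so cell makeup, species and library cannot be told apart. let-7i again had the greatest share of unmatched tails, 22.5% in rat, 25.5% in pig and 21.6% in rabbit, where let-7a had 3.73%, 3.44% and 3.03%. A T added after the mature sequence counts as a tail in let-7i but not in let-7a, so these shares do not count the same forms. The exact mature form was 63.7% of let-7 counts in rat, 69.4% in pig and 74.1% in rabbit.

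The miR-741 knockout lines had 3 (TALEN) and 5 (CRISPR) counts of miR-741-3p, the targeted miRNA, against 80096 in the SSC control. In both lines the let-7 sum was under that of the control by less than 2-fold. The sum was 28764 CPM in the control, 18018 in the TALEN line (log2 change -0.67, interval -0.72 to -0.63) and 18110.5 in the CRISPR line (-0.67, -0.72 to -0.62). All 7 members were under the control in both lines. The median log2 change over members was -0.63 in the TALEN line and -0.72 in the CRISPR line. Over all entries tested it was 0.03 and 0.16. let-7i, at 5745, 2669 and 3179.9 CPM, had the greatest difference of the members in both (-1.11 and -0.85), and let-7f, at 8870, 6097 and 6203, differed by -0.54 and -0.52. The cluster neighbours were under the control in both lines too. The changes in the TALEN and the CRISPR line were -1.32 and -0.92 for miR-99a-5p, -1.40 and -1.04 for miR-100-5p, and -1.27 and -0.78 for miR-125b-5p. At 2-fold, 1 of 7 members was lower in the TALEN line, against 15.2% of 151 entries, and 0 higher, against 15.9%; in the CRISPR line 0 were lower, against 10.1% of 148 entries, and 0 higher, against 9.46%. In both lines together 0 members were lower, where 8.61% of 151 entries were, and 0 higher, where 9.27% were. With DESeq2 size factors 3 members were lower in the CRISPR line, with 10 higher and 25 lower calls over all entries in place of 14 and 15.

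Both lines were compared with the same control library, so their like direction is not independent, and each was a single colony. Between the C57BL/6 SSC library of the stage series and the SSC control the let-7 sum differed by 0.76 on the log2 scale (16993 and 28764 CPM). There 5 of 7 members were at least 2-fold higher in the control, against 3.43% of 321 entries, and 0 lower, against 21.5%. let-7a differed most, at 1838 and 5842 CPM (1.67), while let-7i was close, at 6279 and 5745 (-0.13). The 2 cultures differ in background and in library, which cannot be told apart. The 5 stromal markers, which feeder cells can also carry, were all detected and summed to 27756 CPM in the C57BL/6 SSCs, 21593 in the control, 29414 in the TALEN line and 25135 in the CRISPR line. In the knockout lines 4 of these 5 were under the control, as the let-7 members were. In the control, the TALEN line and the CRISPR line miR-199a-5p was at 5386, 1945 and 2889 CPM, miR-199a-3p at 8204, 2695 and 3410.1, miR-214-3p at 174, 139 and 95.6 and the miR-145a hairpin at 610.2, 178 and 352. The miR-143 hairpin alone was higher, at 7218, 24456 and 18388, and it carries the higher sums. The 7 epithelial markers summed to 976 CPM in the control, 2510.3 in the TALEN line and 1820.2 in the CRISPR line. The part of these markers in the let-7 values was not tested.

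In the composition of the family the 4 SSC libraries lay together against the later stages only in let-7i and let-7g. let-7i held 37.0%, 19.97%, 14.8% and 17.6% in the C57BL/6 SSCs, the control, the TALEN line and the CRISPR line, above the 3.04% to 7.16% of all later mouse stages. let-7g held 18.4%, 16.1%, 16.1% and 17.2%, under the 32.2% or more of all later stages. let-7f led in the 3 libraries of the knockout experiment, with 30.8%, 33.8% and 34.3%. Unmatched tails of all members were also at a like level in the cultured cells, 11.6%, 9.27%, 8.20% and 10.8% of let-7 counts, and above the 2.75% to 7.23% of the later mouse stages. A tails were the larger part of this in all 4, at 6.29%, 6.08%, 4.91% and 6.93%. A T added after the mature sequence is seen only in let-7i, so T tails are undercounted beside A tails. The pooled share also depends on let-7i, whose part in the family was larger in these 4 libraries. Within let-7i alone, the tail share of the C57BL/6 SSCs was close to those at pre-leptotene and leptotene. Whole forms with an added A were 3.51% to 4.55% of let-7a and 3.10% to 4.49% of let-7f in the 4 SSC libraries. In the later mouse stages they were at most 2.31% and 2.27%, both in mature sperm. The other members did not lie above all later stages in each of the 4.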

How the data were processed

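Per the labels' protocols, small RNA libraries were built from TRIzol total RNA with Illumina's method and read on a HiSeq. For each library the authors deposited raw counts of distinct tags, unnormalised; trimming is not given in the sources used here. Bowtie is named in the submitters' processing notes, as are the builds Sscrofa10.2, Rnor_6.0, OryCun2.0 and GRCm38; the step each served is not given in the sources used here. Tags were matched as sequences to RefSeq mature miRNAs (1679 names, 1660 entries) and 1174 GENCODE vM21 hairpins. Changes between libraries are log2 ratios with exact conditional binomial intervals, a count of 0 set to 3. Trends with age used exact permutation over 8 libraries, with Benjamini-Hochberg adjustment over all entries with at least 100 counts in 1 rabbit library (for length, in each), and a threshold of 0.05; Pearson's r used log2(level + 1). The scripts were tested on simulated data. Alternatives used TMM factors (edgeR 4.0.16) and size factors (DESeq2 1.42.0), as scaling only. Members, named miRNAs (members, same-seed miRNAs, passenger strands, cluster neighbours, miR-741, and the 5 most like entries in mouse and in rabbit) and marker lists were chosen with earlier results of these data known. Markers miR-143, miR-145a, miR-34c and miR-302a were counted over their hairpins; miR-486a, miR-150 and miR-292a were not analysed here.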

Additional observations from a re-analysis of the deposited data

How the results depend on the processing

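Each result was recomputed with 1 choice changed at a time; values are log2 changes of the let-7 sum or counts of members, and where they moved the cause was not tested. No paired analysis was possible because each group holds 1 library. The denominator of RefSeq mature entries and the leaving out of days 110 and 180 were chosen after seeing the data. Depth limits members with few counts, such as let-7b with 69 counts in pachytene cells, 41 in round spermatids, 90 in the TALEN line and 65 in the CRISPR line.

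From SSC to pre-leptotene cells (-1.34; 0 members higher, 4 lower) the sum was -0.50 per count of all tags, -0.25 with TMM, 0.0793 with DESeq2 size factors, -0.30 without the miR-506 family, -1.27 for whole sequences and -1.38 with RefSeq entries; 1 member was higher with DESeq2, and 1 lower under all tags, TMM, DESeq2, no miR-506 family and a 4-fold threshold. let-7f turned to 0.038 with TMM and 0.37 with DESeq2, and let-7b to 0.27 with DESeq2. Counting members under the fold too, 4 of 7 were above 0 with TMM and 5 with DESeq2. From pre-leptotene to leptotene cells (-0.07) it was -0.30 per all tags, -0.11 with TMM and -0.0406 without the miR-506 family. From leptotene to zygotene cells (1.37) it was 0.94 per all tags, 0.88 with TMM, 0.73 with DESeq2, 0.76 without the miR-506 family and 1.22 for whole sequences; 3 members were higher at 4-fold. From zygotene to pachytene cells (0.92; 2 higher, 2 lower) it was -3.10 per all tags, with 0 members higher, 7 lower, let-7a at -2.24 and let-7g at -2.59; 1.07 with DESeq2, 0.22 without the miR-506 family (1 higher), 1.14 for whole sequences and 1.29 with RefSeq entries. With let-7a and let-7c as 1 entry 1 was lower, and at 4-fold 0 were higher and 0 lower. From pachytene cells to round spermatids (0.39) it was 0.99 per all tags, 0.78 with TMM and 0.87 with DESeq2, with 1 member higher in each, 0.18 without the miR-506 family and 0.32 for whole sequences; 1 was lower without the miR-506 family and at a minimum of 10 counts. From round spermatids to mature sperm (0.73) it was 3.09 per all tags (7 higher), 0.90 with TMM, 0.96 with DESeq2, 0.47 without the miR-506 family, 0.34 for whole sequences and 0.37 with RefSeq entries.

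For the TALEN line (-0.67) the sum was -0.77 per all tags, -0.81 with TMM, -0.81 with DESeq2 and -0.83 without the miR-506 family; 2 members were lower for whole sequences and 0 at 4-fold. For the CRISPR line (-0.67) it was -0.88 with TMM (2 lower), -0.92 with DESeq2 (3 lower), -0.85 without the miR-506 family (1 lower) and -0.75 for whole sequences (1 lower). With rabbit age, 7 members were lower per all tags, 1 with let-7a and let-7c as 1 entry, 0 without days 10 and 180 and 0 without days 110 and 180; 1 was higher by Pearson's r, and 1 was shorter among tags of 20 to 24 nt. Of the recomputed sums and counts of members, 68 moved, 1 reversed and 179 kept direction and side of the threshold. Among the values of single members 455 stayed the same, 335 moved, 5 reversed, 7 became stronger and 4 weaker. Those that only moved are not listed here.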
